A study of Pistacia vera with 20 samples.

Results

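The heat shock proteins and heat stress factors of pistachio hull were followed through 2 ages, 2 cultivars and 2 kinds of hull split. Members were taken by protein domain from the description field of the deposited gene table: PF00011 for small heat shock proteins, PF00012 for Hsp70, PF00183 for Hsp90, PF00447 for heat shock factors and PF07724 for AAA proteins of the ClpB type. The rule found 143 of 39783 genes, of which 49 were small heat shock proteins, 51 Hsp70, 5 Hsp90, 21 heat shock factors and 17 ClpB type AAA proteins. The material was the exo-mesocarp, the hull that surrounds the shell of Pistacia vera, from commercial orchard trees, and RNA with poly(A) tails was sequenced from 20 libraries. Hulls of the cultivar Golden Hills were intact at 91 days post anthesis (4 libraries), intact at 133 days (3 libraries) or tattered at 133 days (3 libraries). Lost Hills hulls were intact at 91 days (4 libraries), intact at 133 days (3 libraries) or cracked at 133 days (3 libraries). Tattered hulls came from Golden Hills and cracked hulls from Lost Hills, so that kind of split and cultivar cannot be told apart.

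Heat stress factors are transcription factors that bind heat shock elements in promoters. Those of class A activate transcription, and those of classes B and C lack the activator motif of class A. Small heat shock proteins hold unfolding proteins in a soluble state without using ATP, Hsp70 and Hsp90 fold and mature clients with ATP and co-chaperones. ClpB (called HSP101 in plants) pulls proteins out of aggregates. In plants these genes are known for their response to heat, and many are also active during seed maturation, in ripening fruit and under drought or oxidative stress.

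Reads recovered from the deposited values summed to between 16116971 and 18609861 per library, and at the median gene length 1 FPKM stood for about 18.1 reads. The labels number the libraries of a group as biological replicates and do not say that they came from separate trees, so p-values measure the spread between these samples. Of 7 cuticle markers 3 were at 0 in every library and the others summed to 4.55 to 24.8 FPKM, and 19 of 20 green tissue markers were read. Replicate 2 of Golden Hills at 91 days carried all 12 genes that mark Lost Hills, at a median of 27.1% of the Lost Hills level, and replicate 3 carried 11 of 12 at 9.15%. Replicate 2 of Lost Hills at 91 days carried all 14 genes that mark Golden Hills, at 36.9%. Counts of called members over all classes that rest on these groups are therefore given also without replicate 2 of both. Values and calls of single genes and of subclasses are given with all libraries unless stated. In whole hulls, fewer cells of a type and less RNA per cell cannot be told apart.

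Of the 143 members, 15 had no read in any library. A further 33 stayed below 1 FPKM in all but at most 2 libraries and were not tested, which left 95 tested members: 29 small heat shock proteins, 33 Hsp70, 5 Hsp90, 17 heat shock factors and 11 ClpB type proteins. Among the tested members, 2 reached 1 FPKM in tattered hulls and in no other group, and for these a difference was built into the filter. The domain rule also took in 10 gene models whose protein match was another protein or none, 9 of them with a small heat shock protein domain; they are described apart. Among the ClpB type proteins, most are not disaggregases: the 17 hold 4 ClpB, 8 ClpC, 4 ClpX (partner of a mitochondrial protease) and a SMAX1-LIKE protein of a family that represses strigolactone and karrikin signalling.

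Summed over each class, small heat shock proteins stood at 684, 709 and 745 FPKM in the intact Golden Hills libraries at 133 days and at 1874, 1889 and 3436 FPKM in the tattered libraries. The tattered libraries lay above every other library of the series. In Lost Hills the same sum was 949 to 1181 FPKM in intact and 919 to 1095 FPKM in cracked hulls, and these ranges overlapped. The Hsp90 sum was 473 to 665 FPKM in intact and 811 to 1019 FPKM in tattered Golden Hills hulls, without overlap, and 388 to 504 and 452 to 640 FPKM in intact and cracked Lost Hills hulls, with overlap. Heat shock factors summed to 331 to 678 FPKM in intact and 854 to 1227 FPKM in tattered hulls, again without overlap, while the Hsp70 sum (1079 to 1658 against 1461 to 1885 FPKM) and the ClpB type sum (205 to 271 against 232 to 260 FPKM) overlapped. A few genes carried each class: the 5 highest small heat shock protein genes made up 68.5% of the class level over the 20 libraries, the 2 highest Hsp90 genes 84.4% and the 2 highest heat shock factor genes 72.3%.

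**Figure D1:**
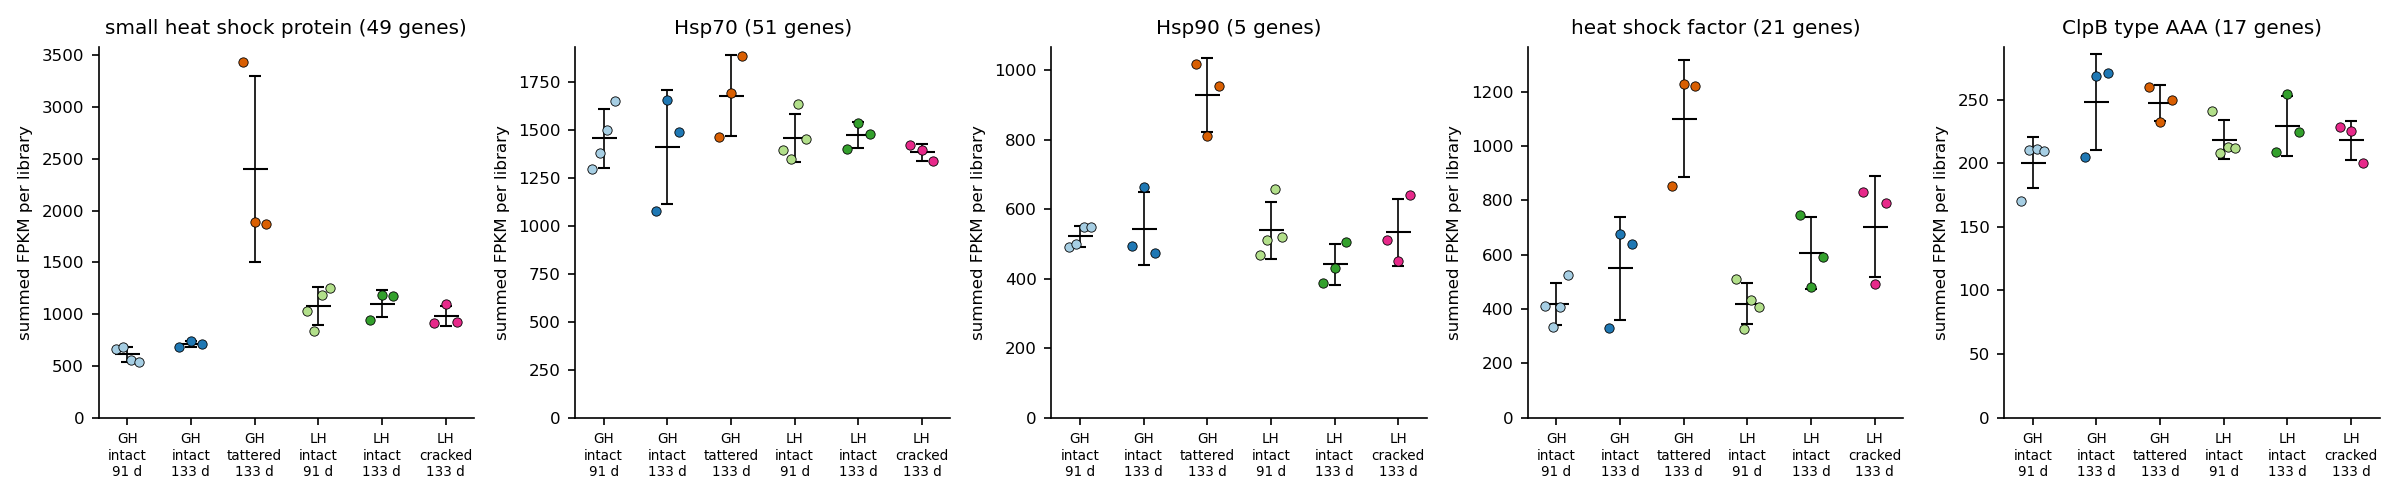
Summed FPKM of each class in each library (points), with the mean and SD of each group (bar and whiskers); GH is Golden Hills, LH is Lost Hills and d is days post anthesis. The 3 tattered libraries lie at 1874 to 3436 FPKM for small heat shock proteins, above every other library.

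Each gene was tested with limma on log2(FPKM + 1) over 19716 genes, and a gene is said to be called where its p, after Benjamini-Hochberg adjustment, was under 0.05. Log2 fold changes are on this scale, where the pseudocount shrinks the changes of weakly expressed genes. In tattered against intact Golden Hills hulls at 133 days, 16.6% of all genes tested were called (9.29% higher and 7.35% lower). Of the 95 tested members 31 were higher and 4 lower in tattered hulls. By class, 18 of 29 small heat shock proteins were higher and none lower, 5 of 33 Hsp70 were higher and 4 lower, and 2 of 5 Hsp90, 4 of 17 heat shock factors and 2 of 11 ClpB type proteins were higher with none lower. The median log2 fold change was 1.04 for small heat shock proteins, 0.55 for Hsp90, 0.39 for heat shock factors, 0.18 for Hsp70 and -0.18 for ClpB type proteins, against 0.01 over all genes tested. Without the 2 genes that passed the filter through tattered hulls alone, 29 of 93 members were higher, with 17 of 28 small heat shock proteins and 3 of 16 heat shock factors among them, and the median of small heat shock proteins was again 1.04. In all 31 genes called higher, every tattered library lay above every intact library. These genes were selected by a test on the same libraries, and they include the 2 that passed the filter through tattered hulls alone. The same count was not made over all called genes, so it adds no separate evidence. Beside these calls, the sum of the 6 sieve element markers was 1.92 to 2.63 FPKM in intact and 0.886 to 1.41 FPKM in tattered hulls, without overlap. The sums of 25 seed, 7 cuticle, 20 green tissue and 6 woody shell markers overlapped between the groups. Their part in the result was not tested.

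Among heat stress factors, the gene matched to Arabidopsis factor B-3 had the largest called change, and together with HSF24 it carried most of the class. This gene, evm_TU_ptg000004l_220, lies on contig ptg000004l, 2820973 to 2822629, minus strand. Its FPKM was 82.4, 209.5 and 211 in the intact libraries and 461, 628 and 601 in the tattered libraries, which did not overlap, a log2 fold change of 1.85 ± 0.37 SE (adjusted p = 0.00305, limma). Factor C-1, a class C member, stood at 4.22, 4.96 and 7.65 FPKM in intact and 11.3, 13.2 and 12.7 in tattered hulls (log2 fold change 1.05 ± 0.29 SE, adjusted p = 0.0202, limma). The other called factors were a pair of genes matched to tomato HSF30, also named HsfA2, which keeps the heat response going in tomato and Arabidopsis. The first, evm_TU_ptg000001l_1567, had 0.892, 1.27 and 1.37 FPKM in intact and 3.47, 2.85 and 3.13 in tattered hulls. The second, evm_TU_ptg000001l_1156, had 0.557, 0.708 and 0.571 and 2.26, 2.27 and 1.99. The log2 fold change of the first was 0.94 ± 0.29 SE (adjusted p = 0.0383, limma), a call that was lost when any of the 6 libraries of this comparison was left out. The second passed the filter through tattered hulls alone, so no test of it is given. HSF24, which is HsfB1 in tomato, overlapped between the groups, with 133, 303 and 267 FPKM in intact and 230.0, 396 and 420.3 in tattered hulls (adjusted p = 0.29, limma). Replicate 1 of the intact group was the lowest of its 3 libraries in factor B-3, C-1 and HSF24, and replicate 1 of the tattered group was the lowest of its group in the same genes; the part of this in the result was not tested. Of the 12 tested class A factors, the HSF30 pair were those called.

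Of the 9 tested class I genes 8 were higher in tattered hulls, as were 3 of 3 mitochondrial and 2 of 2 peroxisomal genes. In other compartments 1 of 3 class II, 0 of 1 class VI, 1 of 3 endoplasmic reticulum (class IV) and 0 of 2 chloroplastic genes were called. The class IV call is evm_TU_ptg000029l_238, which passed the filter only through tattered hulls, so its difference was built in. The 17.9 kDa class II gene reached the highest level of any member. This gene, evm_TU_ptg000001l_859, lies on contig ptg000001l, 13114647 to 13115588, minus strand. It had 104, 69.8 and 86.1 FPKM in intact and 1009, 561 and 535 FPKM in tattered hulls. These groups lay far apart, with a log2 fold change of 2.96 ± 0.38 SE (adjusted p = 4.48e-05, limma) and a ratio of means of 8.09. The most abundant class I gene in tattered hulls, an 18.2 kDa protein (evm_TU_ptg000016l_911, contig ptg000016l, 9534957 to 9535693, plus strand), stood at 125, 128 and 111 FPKM in intact and 449, 303 and 328 in tattered hulls (log2 fold change 1.54 ± 0.23 SE, adjusted p = 0.000259, limma).

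Some, though not all, of the less abundant class I genes showed larger changes. The 17.8 kDa gene evm_TU_ptg000019l_2788 stayed below 1 FPKM in intact hulls, with 0.618, 0.435 and 0.15 FPKM, and stood at 33.8, 7.86 and 6.34 FPKM in tattered hulls (log2 fold change 3.24 ± 0.52 SE, adjusted p = 0.000444, limma). An 18.1 kDa gene, evm_TU_ptg000016l_620, had 42.2, 14.4 and 17.1 and 296, 91.4 and 74.1 FPKM, in the same order of groups. An 18.2 kDa gene, evm_TU_ptg000016l_951, had 9.97, 7.8 and 5.5 and 129.9, 24.7 and 26.3 FPKM. A 17.6 kDa gene, evm_TU_ptg000027l_394, had 3.41, 2.36 and 3.01 and 63.4, 20.5 and 16 FPKM. In each of these genes replicate 1 of the tattered group was the highest library, and the other tattered libraries still lay above the intact ones. Without that replicate, 13 small heat shock proteins were called in place of 18. Over all classes 28 members were called (27 higher and 1 lower) in place of 35 (31 higher and 4 lower). A group with fewer libraries weakens the test for every gene, and the part of this in the lower counts was not tested. An 18.5 kDa (5.76, 8.73 and 12 against 21.2, 19.7 and 15.2 FPKM) and an 18.1 kDa class I gene (15.3, 19.2 and 22.1 against 57, 49.9 and 49.4 FPKM) were called just inside the threshold, with adjusted p = 0.0458 and 0.0456 (limma), and these calls were lost in 22 and 18 of 32 alternative settings.

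Organelle genes followed. A 23.6 kDa mitochondrial gene (evm_TU_ptg000004l_896, contig ptg000004l, 12523157 to 12524070, minus strand) had 39.3, 29.4 and 22.8 FPKM in intact and 263, 119.9 and 148 FPKM in tattered hulls, without overlap (log2 fold change 2.45 ± 0.34 SE, adjusted p = 0.000102, limma). The other 23.6 kDa mitochondrial gene, evm_TU_ptg000010l_1076, went from 3.82, 5.71 and 6.27 to 17.4, 11 and 15.9 FPKM (log2 fold change 1.33 ± 0.19 SE, adjusted p = 0.000118, limma). Both 15.7 kDa peroxisomal genes lie on contig ptg000003l, one starting at 16010089 and the other at 16031854, and both were called. The first had 48.2, 40.5 and 42.4 FPKM in intact and 129, 69.1 and 67.8 in tattered hulls, the second 19.3, 17.5 and 18.8 and 81.5, 64.9 and 53.7. A 22.0 kDa gene matched to an endoplasmic reticulum protein of Arabidopsis, evm_TU_ptg000029l_238, was listed at 0 in all 4 Golden Hills libraries at 91 days, had 0, 0.216 and 0.334 FPKM in intact hulls at 133 days and 41.8, 4.85 and 3.89 FPKM in tattered hulls. It passed the filter only through tattered hulls, so no test of it is given, and no ratio since the intact libraries lay at or under 3 reads. The more abundant 22.0 kDa class IV gene, evm_TU_ptg000001l_4585, was not called (adjusted p = 0.0672, limma), although 525, 322 and 299 FPKM in tattered hulls did not overlap 141, 235 and 175 FPKM in intact hulls. Of the 4 tested gene models with a small heat shock protein domain and another match (3) or none (1), 3 were higher in tattered hulls. A model matched to a UDP-glucose iridoid glucosyltransferase (evm_TU_ptg000016l_915) had the smallest adjusted p of all members, 4.14e-06 (limma). It had 0.844, 0.623 and 0.467 FPKM in intact and 10.2, 5.15 and 4.55 in tattered hulls. A model matched to APO protein 3 (evm_TU_ptg000016l_916) had 2.2, 1.6 and 2.31 and 23.2, 5.78 and 7.85. Whether the reads of such models come from their small heat shock protein part was not tested.

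Among Hsp70 genes, the called rises were in the cytosolic group (4 of 14) and in 1 of 3 genes for BiP, the Hsp70 of the endoplasmic reticulum. An Hsp70 gene matched to soybean, evm_TU_ptg000001l_203 (contig ptg000001l, 3044107 to 3046564, plus strand), had 18.6, 34.1 and 29.2 FPKM in intact and 58.6, 89.2 and 94.6 FPKM in tattered hulls (log2 fold change 1.54 ± 0.24 SE, adjusted p = 0.00037, limma). The cognate genes that carry most Hsp70 RNA were not called: the highest, evm_TU_ptg000027l_597, had 379, 654 and 613 FPKM in intact and 479, 483 and 542 FPKM in tattered hulls (log2 fold change -0.09 ± 0.17 SE, 95% interval -0.45 to 0.26). The next, evm_TU_ptg000009l_466, had 79.6, 232 and 185 and 162, 388 and 429 FPKM, with overlap (adjusted p = 0.0767, limma). The 4 falls were in other compartments or families. Chloroplastic Hsp70 6, a stromal chaperone, had 119.9, 134 and 129 FPKM in intact and 86.8, 89.3 and 103 in tattered hulls and fell by 0.46 on the log2 scale (adjusted p = 0.0214, limma). The other 3 were genes on contig ptg000017l matched to Hsp70 15, of the Hsp110 type that exchanges nucleotides for Hsp70. Of these, evm_TU_ptg000017l_1023 had 4.75, 5.67 and 7 and 3.44, 4.14 and 3.1 FPKM (fell by 0.57 on the log2 scale, adjusted p = 0.0279, limma).

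Of the Hsp90 genes, Hsp90-1, the heat-inducible cytosolic form in Arabidopsis, showed the largest change. This gene, evm_TU_ptg000010l_341, lies on contig ptg000010l, 9371511 to 9374175, minus strand. It had 25, 34.4 and 24 FPKM in intact and 274, 149 and 165 FPKM in tattered hulls, a log2 fold change of 2.74 ± 0.34 SE (adjusted p = 2.90e-05, limma) and a ratio of means of 7.06. Heat shock cognate protein 80, the constitutive cytosolic form in tomato, also rose, from 204, 295 and 218 to 404, 392 and 488 FPKM (log2 fold change 0.85 ± 0.16 SE, adjusted p = 0.00139, limma). The endoplasmic reticulum form endoplasmin and the mitochondrial form were not called, with log2 fold changes of 0.16 ± 0.22 SE and -0.03 ± 0.12 SE. Both called ClpB type genes were matched to ClpB1, the cytosolic disaggregase. The first, evm_TU_ptg000002l_854 (contig ptg000002l, 8929075 to 8933588, minus strand), had 10.1, 14.1 and 11.7 FPKM in intact and 65.2, 34.3 and 43.5 FPKM in tattered hulls (log2 fold change 1.87 ± 0.31 SE, adjusted p = 0.000588, limma). None of the 4 tested ClpC and 3 tested ClpX genes was called. Rescaling every library to the same total (TPM) moved the median of all genes by -0.13 on the log2 scale. On that scale 27 members were higher and 9 lower, with 4 ClpB type genes among the lower, while over all 19716 genes 1064 were higher and 2993 lower in place of 1831 and 1450.

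**Figure D2:**
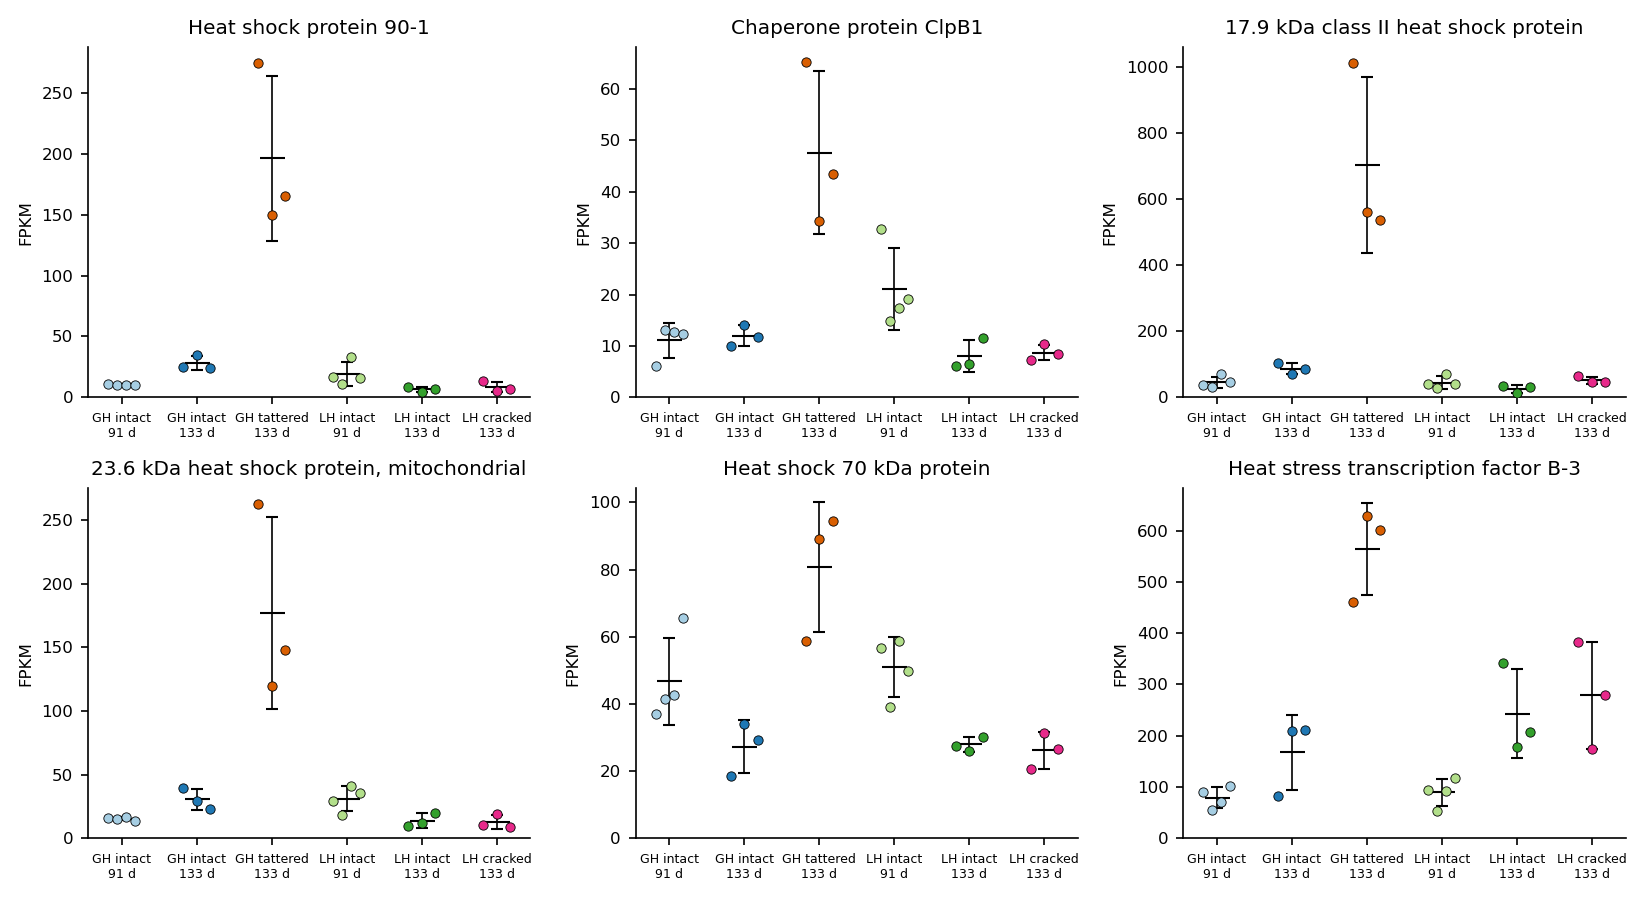
FPKM of 6 members in each library (points), with the mean and SD of each group; each panel starts at 0. In all 6 panels the 3 tattered libraries lie above the 3 intact Golden Hills libraries of the same age, and Hsp90-1 reaches 274 FPKM in tattered replicate 1.

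In cracked against intact Lost Hills hulls, 1.56% of all genes tested were called (1.48% higher and 0.0812% lower), and none of the 95 members was called by limma. At an unadjusted p under 0.05 by limma, 5 members were higher and 4 lower, beside 1179 higher and 551 lower of all 19716 genes. With voom on recovered reads no member was called. The smallest adjusted p of a member was 0.0988, for the mitochondrial gene evm_TU_ptg000010l_1076, which had 7.16, 6.13 and 6.6 FPKM in intact and 3.18, 4.54 and 3.77 FPKM in cracked hulls, a difference in the other direction from Golden Hills. Hsp90-1 had 8.4, 4.59 and 6.86 FPKM in intact and 13.5, 5.34 and 6.96 in cracked hulls, with overlap (log2 fold change 0.27 ± 0.34 SE, 95% interval -0.44 to 0.98). ClpB1 had 6.06, 6.56 and 11.5 and 7.33, 10.3 and 8.42 FPKM, also with overlap (log2 fold change 0.14 ± 0.31 SE, 95% interval -0.51 to 0.79). The largest positive log2 fold change of any member was that of the 17.9 kDa class II gene, with 34.3, 12.7 and 30.9 FPKM in intact and 64.1, 46.5 and 44.8 FPKM in cracked hulls. Its libraries did not overlap, and its log2 fold change was 1.07 ± 0.38 SE (adjusted p = 0.269, limma). Factor B-3 overlapped, with 341, 178 and 208 and 383, 173 and 280.0 FPKM.

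The tattered and cracked comparisons share no library, so their values can be set side by side. Of the 31 members higher in tattered hulls, 16 had a positive and 15 a negative log2 fold change in cracked hulls, with a median of 0.06 (from -0.67 to 1.07), against a median of 1.43 in tattered hulls. Without the 2 genes that passed the filter through tattered hulls alone, 15 were positive and 14 negative. The median of 1.43 follows in part from choosing these genes by their call in tattered hulls. Over all 95 tested members, chosen without regard to any call, the median was 0.44 in tattered and 0.01 in cracked hulls. These medians were 0.42 and 0.01 over the 93 members left without the 2 genes that the filter favoured. The difference itself was tested as an interaction, for which 0.994% of all genes were called (0.771% with the larger and 0.223% with the smaller change in Golden Hills). Of the 95 members 8 were called, each with the larger change in tattered hulls: 6 small heat shock proteins, the Hsp70 gene evm_TU_ptg000001l_203 and Hsp90-1. One of the 6 is evm_TU_ptg000029l_238, whose difference the filter built in; without it and the HSF30 gene evm_TU_ptg000001l_1156, 7 of 93 were called. The difference was 2.47 ± 0.48 SE for Hsp90-1 (adjusted p = 0.0132), 2.59 ± 0.48 SE for the mitochondrial gene evm_TU_ptg000004l_896 (adjusted p = 0.00875), 2.00 ± 0.26 SE for evm_TU_ptg000010l_1076 (adjusted p = 0.000587) and 1.65 ± 0.34 SE for the Hsp70 gene (adjusted p = 0.0226), on the log2 scale by limma. No heat shock factor was called for this difference: for factor B-3 it was 1.67 ± 0.53 SE (adjusted p = 0.152, limma). The count fell to 3 with voom on recovered reads, where Hsp90-1 was among those lost, and to 4 without intact Golden Hills replicate 1 at 133 days.

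**Figure D3:**
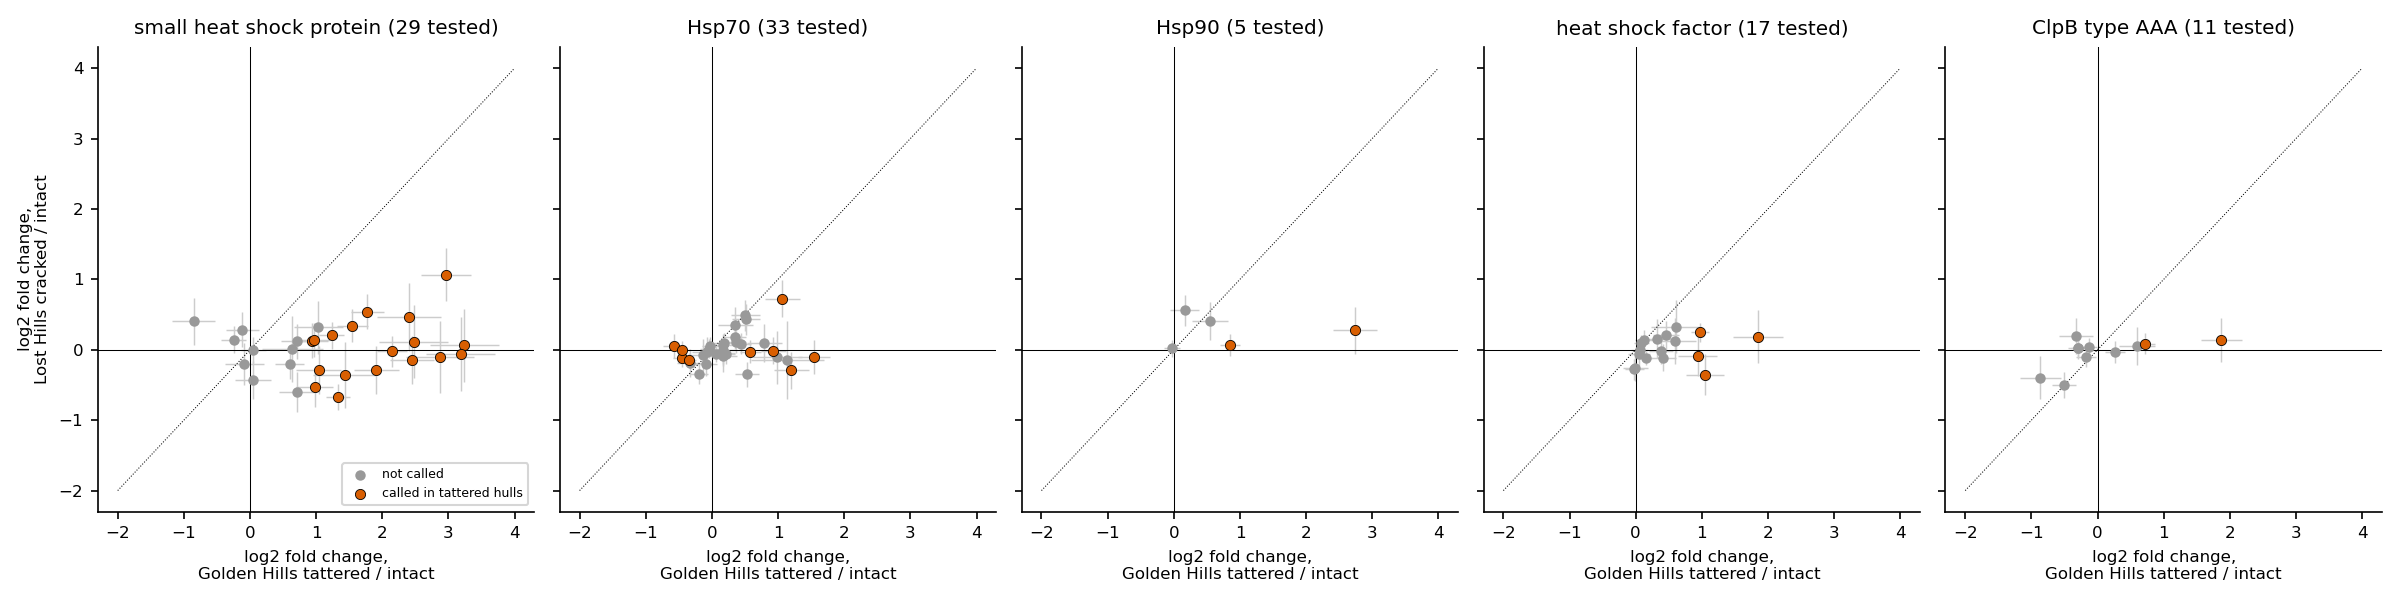
Log2 fold change of each tested member in tattered against intact Golden Hills hulls (x axis) and in cracked against intact Lost Hills hulls (y axis), at 133 days, by class; whiskers are standard errors, the dotted line marks equal changes and orange points were called in tattered hulls. Small heat shock proteins spread along the x axis to 3.24 while their values in cracked hulls lie between -0.67 and 1.07.

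With age, intact hulls changed in both cultivars, and more members fell than rose in each, though not in every class. In Golden Hills 45.3% of all genes were called between 91 and 133 days (23.2% higher and 22.1% lower at 133 days), and 48 of 95 members, 19 higher and 29 lower. In Lost Hills 31.7% of all genes were called (16% higher and 15.7% lower), and 34 members, 8 higher and 26 lower. The share of members called in either direction was 50.5% in Golden Hills and 35.8% in Lost Hills, near that of all genes. Small heat shock proteins had 7 higher and 11 lower in Golden Hills and 4 and 7 in Lost Hills. For Hsp70 these counts were 2 and 9 and 2 and 8, for Hsp90 2 and 2 and 0 and 4. Heat shock factors had 4 and 7 and 1 and 6, and ClpB type proteins 4 and 0 and 1 and 1. Without replicate 2 of both 91 day groups the counts were 37 (11 higher and 26 lower) and 30 (8 higher and 22 lower). Fewer libraries weaken the test for every gene, and the part of this in the lower counts was not tested. On the TPM scale, which moved the median of all genes by -0.18 in Golden Hills, 9 members were higher and 36 lower there, while over all 19716 genes 3265 were higher and 6123 lower in place of 4566 and 4366. Beside these changes, marker sums moved with age in intact hulls. Sieve element markers summed to 15.9 to 38.1 FPKM at 91 days and 1.51 to 2.63 FPKM at 133 days, and green tissue markers to 308 to 501 and 201 to 282 FPKM. Woody shell markers went from 2.94 to 11 FPKM at 91 days to 1.4 to 1.52 FPKM at 133 days in Golden Hills, and from 3.37 to 7.64 to 0.613 to 1.1 FPKM in Lost Hills. Seed markers summed to 55.5 to 99.6 and 23.6 to 29 FPKM in Golden Hills and to 50.8 to 116 and 33.1 to 51.2 FPKM in Lost Hills, where the ages overlapped. The cuticle marker sum was higher at 133 days in Golden Hills (8.9 to 12.2 against 15.5 to 21.6 FPKM) and lower in Lost Hills (10.7 to 12.9 against 4.55 to 8.91 FPKM). This sum rested mostly on 1 gene, evm_TU_ptg000024l_491. Its mean at 91 and 133 days was 10.7 and 18.3 FPKM in Golden Hills and 11.4 and 7.28 FPKM in Lost Hills. The part of these tissues in the result was not tested.

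The largest change of any member with age was in the 22.0 kDa class IV gene of the endoplasmic reticulum, evm_TU_ptg000001l_4585 (contig ptg000001l, 59300999 to 59301586, minus strand). In Golden Hills it had 0.266, 0.834, 0.44 and 0.384 FPKM at 91 days and 141, 235 and 175 FPKM at 133 days. In Lost Hills it had 1.58, 0.347, 0.666 and 0.833 and 20.2, 37.1 and 73.2 FPKM. It rose in both cultivars, by 6.95 ± 0.35 SE (adjusted p = 3.49e-10) and 4.44 ± 0.35 SE (adjusted p = 1.30e-07) on the log2 scale by limma, and rose more in Golden Hills, with a difference of 2.51 ± 0.50 SE (adjusted p = 0.00983). SMAX1-LIKE 8 also rose in both, from 1.87, 4.23, 3.33 and 3.8 to 12.6, 20.9 and 23.2 FPKM in Golden Hills and from 4.97, 3.6, 3.25 and 6.28 to 18.5, 19.4 and 14.7 FPKM in Lost Hills. Factor B-3 rose in Lost Hills, from 94.2, 54.2, 93.2 and 118 to 341, 178 and 208 FPKM (log2 fold change 1.42 ± 0.35 SE, adjusted p = 0.0051, limma); in Golden Hills its call (adjusted p = 0.0291) was lost without replicate 2 of both 91 day groups.

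Of the 14 tested cytosolic Hsp70 genes, 8 fell in Golden Hills and none rose, and 7 fell and 1 rose in Lost Hills. Of these, 7 of the falls in Golden Hills and 6 in Lost Hills were in an array of 21 Hsp70 genes on contig ptg000009l (2911203 to 3121908), of which 11 were tested, 4 had no read and 1, evm_TU_ptg000009l_466, carried 82.6% of the level. The largest fall was in a merged gene model of that array, evm_TU_ptg000009l_453_evm_TU_ptg000009l_454, from 4.3, 6.95, 7.93 and 6.91 to 0.561, 0.499 and 0.315 FPKM in Golden Hills and from 8.08, 7.26, 9.26 and 6.64 to 0.896, 0.37 and 0.281 FPKM in Lost Hills. Its neighbour evm_TU_ptg000009l_457 fell in both too, by 1.78 (adjusted p = 6.01e-07) and 1.92 (adjusted p = 9.41e-07) on the log2 scale by limma, and was higher in tattered than in intact hulls at 133 days (5.17, 6.54 and 6.57 against 2.34, 2.76 and 3.06 FPKM). Chloroplastic Hsp70 6 went the other way, from 66.3, 74.9, 84.9 and 82.7 to 119.9, 134 and 129 FPKM in Golden Hills and from 71.4, 73.6, 76.7 and 79.5 to 99.9, 136 and 113 FPKM in Lost Hills, called in both.

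Heat shock factors that fell in both cultivars were C-1, HSF30 (evm_TU_ptg000001l_1567), an A-2b and an A-3 gene. HSF30 had 4.91, 3.97, 10.1 and 11.3 FPKM at 91 days and 0.892, 1.27 and 1.37 FPKM at 133 days in Golden Hills, and 5.76, 2.9, 2.37 and 4.57 and 1.82, 1.21 and 1.76 FPKM in Lost Hills, without overlap in either cultivar. Its log2 fold change was -1.88 ± 0.28 SE (adjusted p = 3.20e-05) and -0.87 ± 0.28 SE (adjusted p = 0.0229) by limma. The 18.2 kDa class I gene evm_TU_ptg000016l_911 fell from 269.6, 257, 208 and 222 to 125, 128 and 111 FPKM in Golden Hills and from 219, 218, 361 and 264 to 47.7, 99.7 and 93.5 FPKM in Lost Hills. Its tattered libraries (449, 303 and 328 FPKM) lay above the intact libraries of both ages in Golden Hills.

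Some members changed with age in opposite directions. The age interaction called 3.29% of all genes (2.05% higher and 1.24% lower) and 7 of 95 members, 4 with the higher and 3 with the lower change in Golden Hills; without replicate 2 of both 91 day groups the count was also 7 (4 and 3). Hsp90-1 rose in Golden Hills from 11, 10.5, 10.4 and 10.3 to 25, 34.4 and 24 FPKM and fell in Lost Hills from 16.6, 10.8, 33.3 and 15.7 to 8.4, 4.59 and 6.86 FPKM (difference 2.62 ± 0.45 SE, adjusted p = 0.00368, limma). The mitochondrial 23.6 kDa gene evm_TU_ptg000004l_896 rose from 15.9, 14.9, 17 and 13.8 to 39.3, 29.4 and 22.8 FPKM and fell from 29.4, 18.1, 40.9 and 35.9 to 9.4, 12.3 and 20.3 FPKM. The 18.5 kDa class I gene, evm_TU_ptg000009l_339, did the reverse, falling from 38.6, 25.1, 20.1 and 11 to 5.76, 8.73 and 12 FPKM in Golden Hills and rising from 28.6, 24.3, 26.5 and 53 to 113, 148 and 109.6 FPKM in Lost Hills (difference -3.18 ± 0.45 SE, adjusted p = 0.000791, limma). A gene matched to factor B-2a, evm_TU_ptg000010l_1315, fell in Golden Hills from 10.2, 8.88, 13.9 and 19.2 to 1.49, 3.58 and 4.21 FPKM and was not called in Lost Hills, with 7.9, 8.2, 3.36 and 8.36 and 8, 10.9 and 11.9 FPKM (difference -2.34 ± 0.43 SE, adjusted p = 0.00632, limma).

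**Figure D4:**
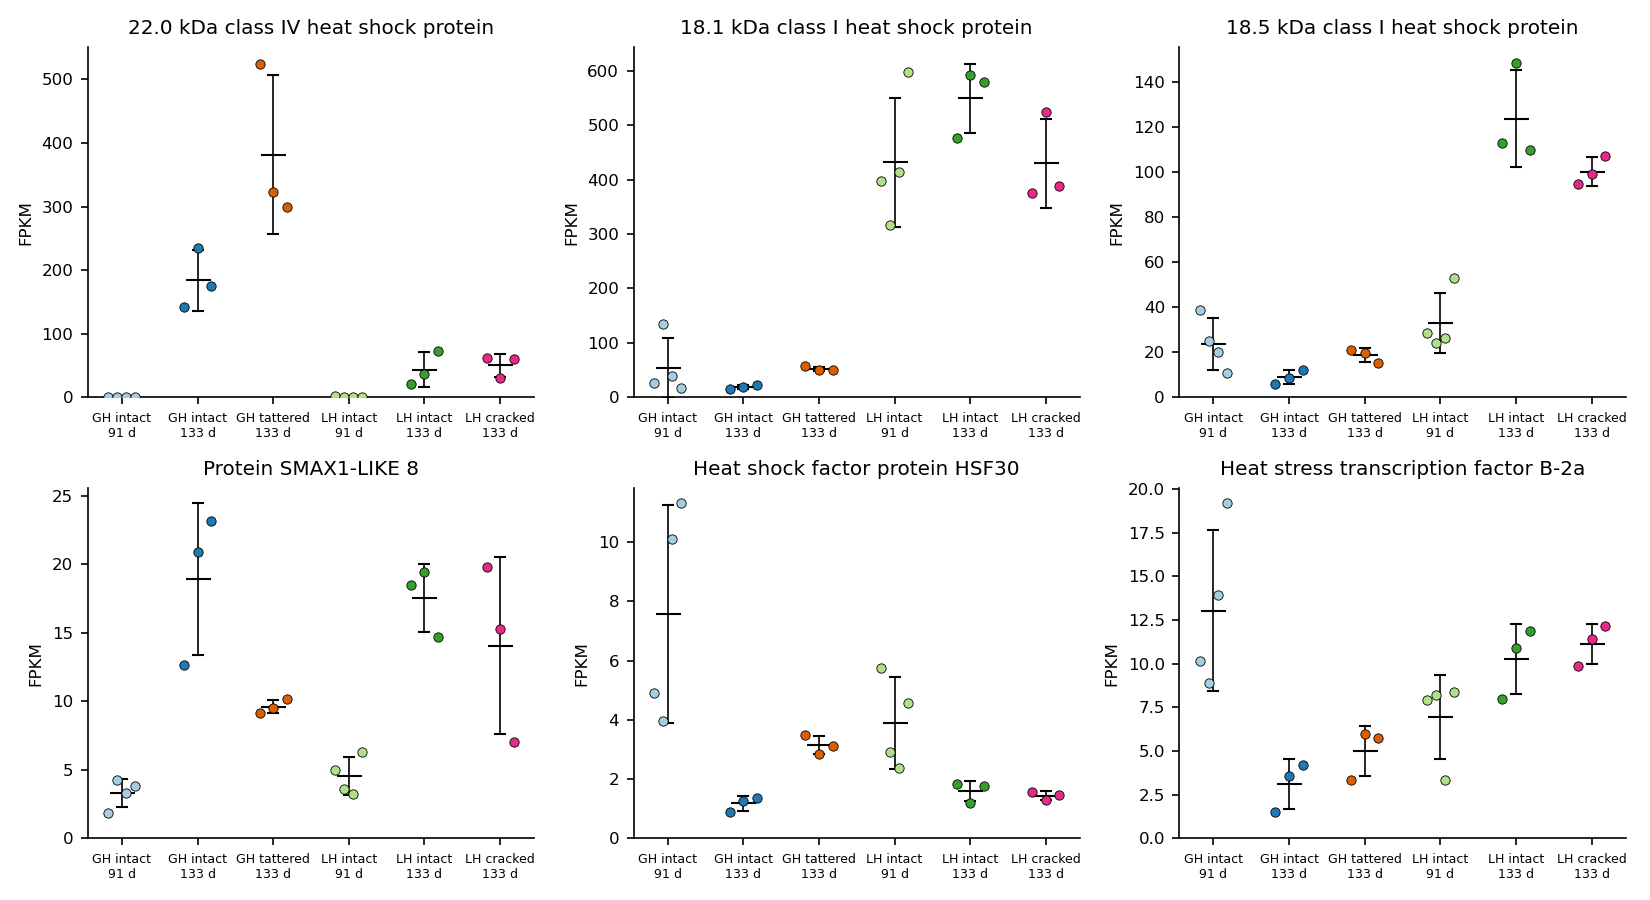
FPKM of 6 members in each library (points), with the mean and SD of each group; each panel starts at 0. The 22.0 kDa class IV gene is at most 1.58 FPKM in the libraries at 91 days and at least 20.2 FPKM at 133 days, and the 18.1 kDa class I gene is at least 317 FPKM in every Lost Hills library.

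Between the cultivars, the 18.1 kDa class I gene evm_TU_ptg000027l_395 (contig ptg000027l, 2938691 to 2939555, plus strand) had the largest log2 difference at both ages. In intact hulls at 91 days it had 25.7, 135, 40.0 and 16.3 FPKM in Golden Hills and 397, 317, 414 and 598 FPKM in Lost Hills, and at 133 days 15.3, 19.2 and 22.1 and 475, 591 and 579.8 FPKM. Every Lost Hills library lay above every Golden Hills library at both ages. The log2 difference, Golden Hills minus Lost Hills, was -3.39 ± 0.41 SE at 91 days (adjusted p = 5.77e-05) and -4.80 ± 0.47 SE at 133 days (adjusted p = 3.72e-06) by limma. The highest Golden Hills value, 135 FPKM, is that of replicate 2 at 91 days, and without replicate 2 of both groups the 91 day difference was -4.12. At 133 days the 18.5 kDa class I gene evm_TU_ptg000009l_339 was also lower in Golden Hills (5.76, 8.73 and 12 against 113, 148 and 109.6 FPKM, log2 difference -3.70 ± 0.34 SE, adjusted p = 2.07e-06, limma). A gene matched to factor A-3, which acts in heat and drought responses of Arabidopsis, was low in Golden Hills: evm_TU_ptg000011l_81 had 2.2, 1.18, 1.81 and 1.73 FPKM in Lost Hills and 0.129, 0.339, 0.193 and 0.0351 FPKM in Golden Hills at 91 days, and in intact hulls at 133 days 1.32, 1.15 and 1.56 and 0, 0.0376 and 0 FPKM. It was called at both ages. At 91 days 5.1% of all genes (2.55% with the higher level in Golden Hills and 2.56% with the lower) and 6 of 95 members were called, 2 higher and 4 lower in Golden Hills (7 without replicate 2 of both groups, 2 higher and 5 lower); at 133 days 16.8% of all genes (8.88% higher and 7.91% lower) and 16 members, 7 higher and 9 lower. In the latter, higher genes included Hsp90-1 (log2 difference 1.93 ± 0.34 SE), the 22.0 kDa class IV gene (2.21 ± 0.37 SE) and the 17.9 kDa class II gene (1.80 ± 0.38 SE).

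**Figure D5:**
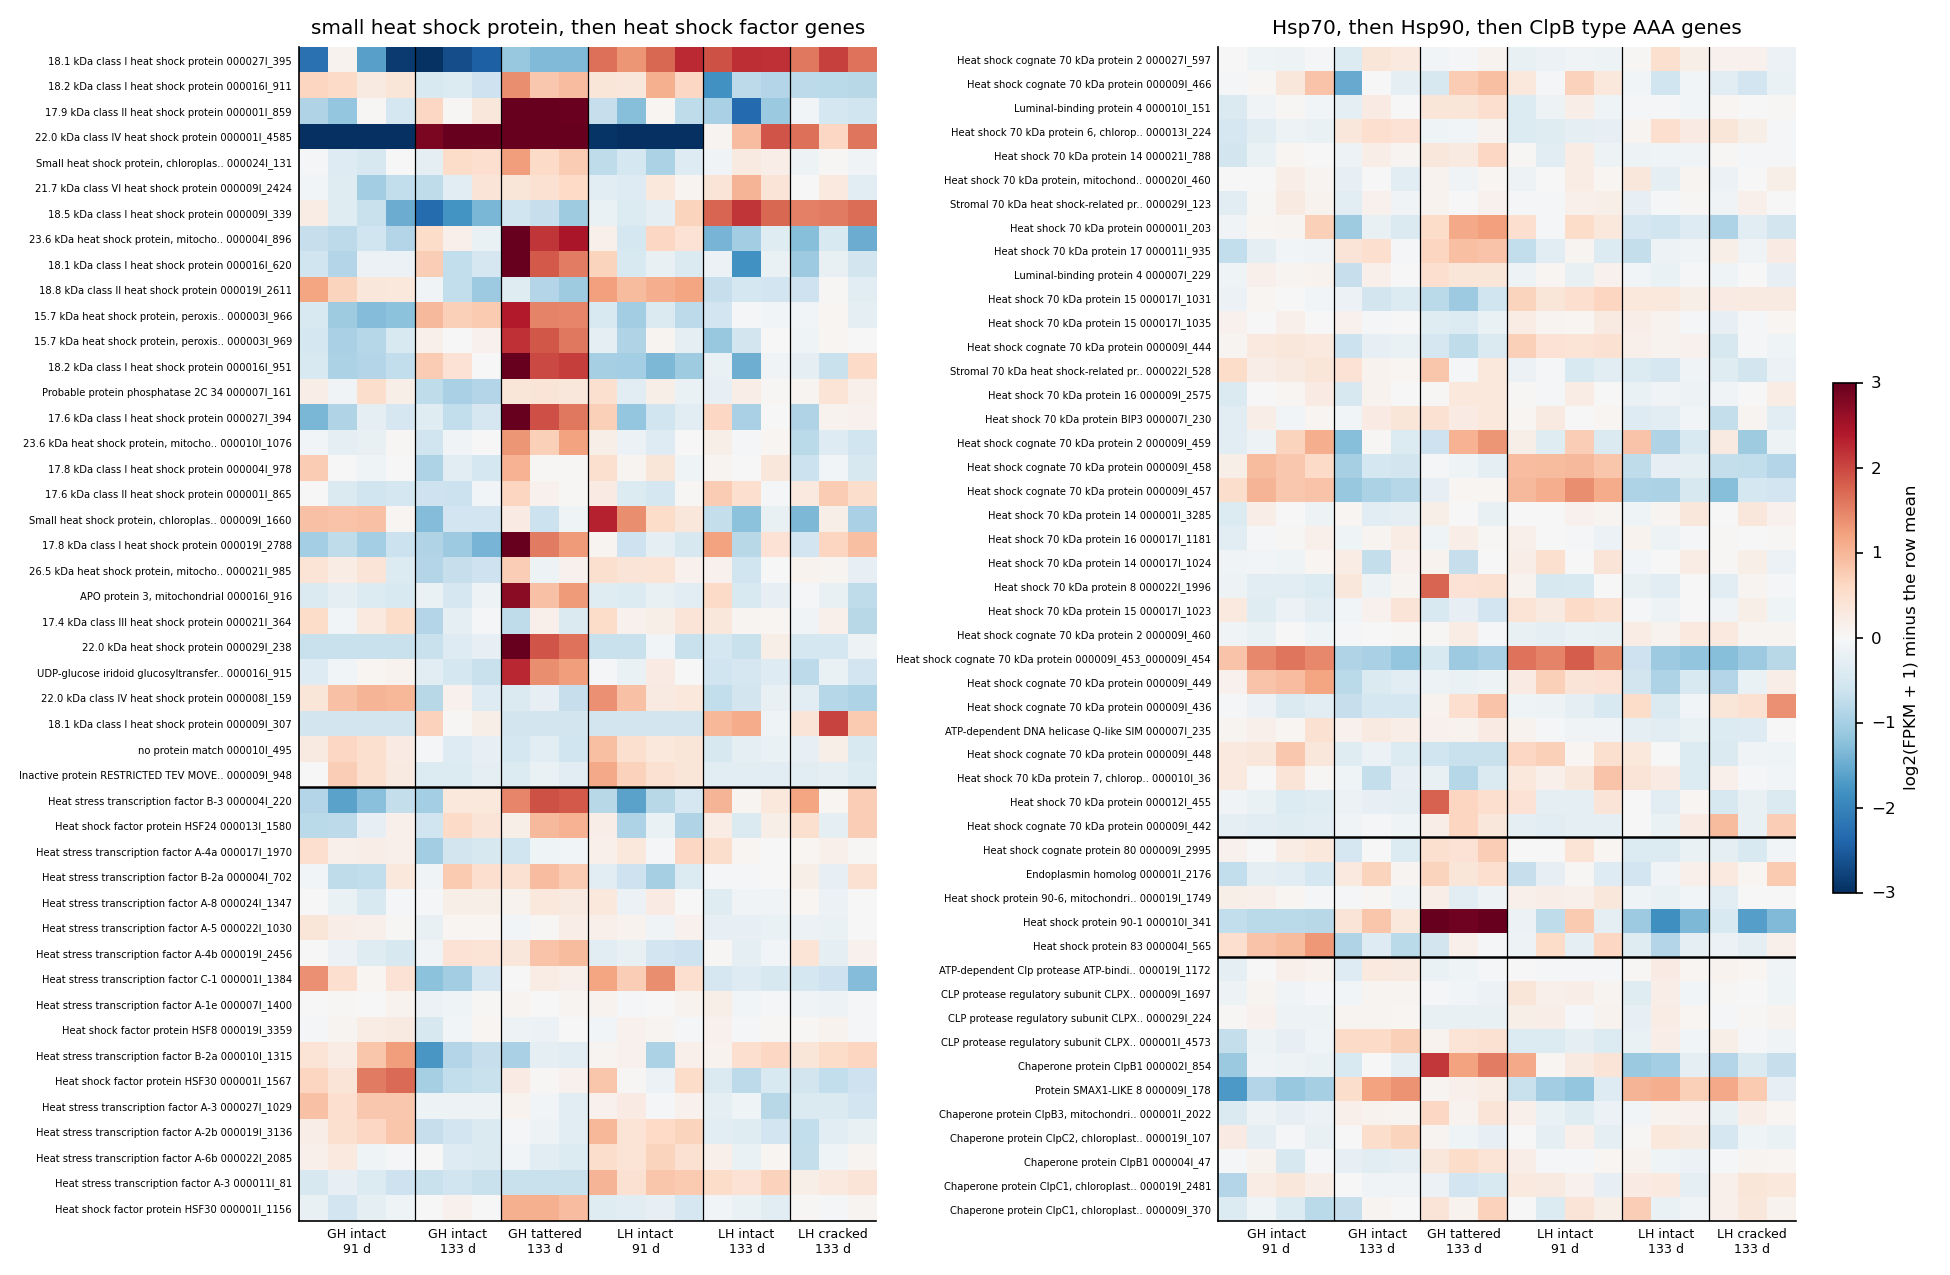
Log2(FPKM + 1) of each of the 95 tested members in each library, minus that gene's mean over the 20 libraries, from -3 (blue) to 3 (red), with genes of each class ordered by mean level and labelled by protein match and gene number. The 3 tattered columns are red for most small heat shock proteins, and the 22.0 kDa class IV gene is blue in every library at 91 days.

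Many members lie beside close relatives. Besides the Hsp70 array, 11 small heat shock protein genes lie within 166.9 kb of contig ptg000016l (9525427 to 9692318); 3 of them were tested, 4 are gene models with another match or none, and evm_TU_ptg000016l_911 carried 97.3% of the level. A further 4 lie within 32.7 kb of the same contig, where evm_TU_ptg000016l_951 carried 94.1%. The 143 members lie on 20 contigs in all. How reads shared by near-identical copies were counted is not given in the sources used here, so values of single copies in arrays are uncertain.

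Within groups, members of a class were on average weakly correlated. The mean correlation between members of their deviations from the group means over the 20 libraries was 0.180 for small heat shock proteins, 0.220 for the 12 cytosolic class I and II genes among them, 0.0816 for Hsp70, 0.166 for Hsp90, 0.156 for heat shock factors and 0.147 for ClpB type proteins, against 0.00138 over all genes tested. The points share libraries and read depth, and the values are a description. Other sets of like size were not compared.

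Co-chaperones and other partners were taken by domain or name from outside the 5 classes, 189 genes of which 161 were tested. In tattered hulls 21 were higher and 8 lower, 18% of those tested, near the 16.6% of all genes. DnaJ co-chaperones, which bring clients to Hsp70, split into 8 higher and 5 lower of 74. Among partners of Hsp90, 2 of 2 AHA1 type activators and 4 of 9 proteins with the CS domain of p23 and SGT1 were higher and none lower, and 1 of 6 STI1/HOP type organisers, which link Hsp70 to Hsp90, was higher. Of FKBP type isomerases 4 were higher and 1 lower of 20, of Cpn60 chaperonins 0 were higher and 2 lower of 23, and 1 of 2 Cpn10 and 1 of 7 galactinol synthase genes were higher. None of 8 BAG, 3 GrpE, 5 calreticulin or calnexin and 2 MBF1 genes was called by limma. Of these, 4, 2, 2 and 0 passed an unadjusted p under 0.05, beside 6138 of all 19716 genes. FKBP65, a heat-induced partner of Hsp90 and HsfA2 in Arabidopsis, had the largest rise, from 1.91, 2.91 and 2.26 FPKM in intact to 39.3, 16.2 and 16.8 FPKM in tattered hulls (log2 fold change 2.79 ± 0.33 SE, adjusted p = 1.74e-05, limma). In Lost Hills it had 6.47, 2.06 and 2.31 FPKM in intact and 1.49, 1.95 and 1.60 FPKM in cracked hulls, and the difference between the split comparisons was 3.45 ± 0.46 SE (adjusted p = 0.000718, limma). The chloroplastic isomerase FKBP18 had the largest fall, from 8.82, 8.55 and 8.27 FPKM to 4.12, 5.74 and 3.87 FPKM (fell by 0.79 on the log2 scale, adjusted p = 0.00517, limma). No partner was called in cracked hulls by limma, where 4 of 161 passed an unadjusted p under 0.05, beside 1730 of all 19716 genes.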

How the data were processed

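The authors deposited 1 table of FPKM (fragments per unit of gene length and sequencing depth) for 39783 genes in 20 hull libraries, with gene coordinates and descriptions. The submitters' processing notes name HISAT2 2.0.5, StringTie 1.3.3b and featureCounts 1.5.0-p3; the genome build is not given in the sources used here. The 19716 genes that reached 1 FPKM in 3 or more libraries were tested with limma 3.58.1 in R 4.3.3 on log2(FPKM + 1), with 6 groups in 1 fit, a variance trend, no replicate block and Benjamini-Hochberg adjustment over all genes in each of 8 comparisons, two-sided. Whole reads were recovered from the deposited FPKM for all values within a tolerance of 0.01, and voom on these reads was an alternative. The script was tested on simulated data.

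The members and lists were chosen with earlier results of these data known. Genes were named by class: the up to 6 with the highest mean level, and the called genes with the largest change in each direction among those with at least 5 FPKM, in the split and age comparisons by class and in the others over all classes. Genes 003l_966, 003l_969, 004l_896, 007l_161, 009l_453 with 009l_454, 009l_457, 010l_1076, 010l_1315, 011l_81, 016l_620, 016l_915, 016l_916, 016l_951 and 027l_394 fall outside that rule and were chosen after their values were seen. Same-numbered replicates were not treated as paired: their deviations correlated at -0.334 to 0.223, which cannot exclude a pairing. Alternatives were other pseudocounts, filters, scalings, array weights, a replicate block, and leaving out each library.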

Additional observations from a re-analysis of the deposited data

Results flagged for a closer look

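In 90 tests of groups of 4 libraries, 10 values lay far from the rest of their group (by Dixon's gap over range at its 95% critical value); chance alone picks about 1 in 20 groups. In Golden Hills at 91 days these were the ClpB type sum of 170.286 FPKM, ClpB1 evm_TU_ptg000002l_854 at 6.09 FPKM and factor A-4a at 47.8 FPKM, all in replicate 1, and the chloroplastic small heat shock protein evm_TU_ptg000009l_1660 at 3.34 FPKM in replicate 4. In Lost Hills at 91 days they were the ClpB type sum of 241 FPKM in replicate 1, CLPX3 at 17.2, heat shock cognate protein 80 at 387, factor A-5 at 15.5 and the 22.0 kDa gene evm_TU_ptg000029l_238 at 0.499 FPKM, all in replicate 3, and the 18.5 kDa class I gene at 53.0 FPKM in replicate 4.

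The change with splitting was larger in tattered Golden Hills than in cracked Lost Hills hulls, by limma's interaction test, for 8 members. On the log2 scale the difference was 1.65 for the Hsp70 gene evm_TU_ptg000001l_203, 2.00 for the mitochondrial gene evm_TU_ptg000010l_1076, 2.17 and 2.20 for the gene models evm_TU_ptg000016l_915 and evm_TU_ptg000016l_916, 2.47 for Hsp90-1, 2.59 for the mitochondrial gene evm_TU_ptg000004l_896, 3.18 for the 17.8 kDa class I gene and 3.25 for the 22.0 kDa gene evm_TU_ptg000029l_238, which passed the filter through tattered hulls alone, so that its difference was built in. The change with age differed between cultivars for 7 members: -3.18 for the 18.5 kDa class I gene, -2.34 for factor B-2a evm_TU_ptg000010l_1315, -1.05 for a gene model matched to protein phosphatase 2C, 1.40 for the peroxisomal gene evm_TU_ptg000003l_966, 2.02 for evm_TU_ptg000004l_896, 2.51 for the 22.0 kDa class IV gene and 2.62 for Hsp90-1, each Golden Hills minus Lost Hills.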

How the results depend on the processing

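The counts of members called ranged as follows when 1 library at a time was left out: 28 to 38 for tattered against intact Golden Hills hulls (35 with all libraries), 0 to 1 for cracked against intact Lost Hills hulls (0), 4 to 10 for the split interaction (8), 37 to 51 for age in Golden Hills (48), 26 to 36 for age in Lost Hills (34), 5 to 8 for the age interaction (7), 3 to 7 between cultivars at 91 days (6) and 12 to 20 at 133 days (16). The lowest split interaction count came without intact Golden Hills replicate 1 at 133 days, and the lowest count at 91 days without Lost Hills replicate 3. Leaving out a library changes the test for every gene. These ranges were not set beside counts over all genes, so they do not show whether members differ from other genes. With calls limited to log2 fold changes of 1 or more in size there were 22 tattered calls, 19 for age in each cultivar, 2 between cultivars at 91 days and 9 at 133 days. Over all genes they were 945, 3037 (Golden Hills age), 1952 (Lost Hills age), 409 and 1240. Fitting only the groups compared gave 23 tattered calls and 4 for the split interaction, with 1790 and 83 over all genes. Array weights gave 2 cracked calls, 22 for the split interaction, 11 between cultivars at 91 days and 25 at 133 days. Calls over all 19716 genes rose as well, from 307 to 666, 196 to 981, 1006 to 1730 and 3310 to 6044. The split interaction count was 5 with a pseudocount of 0.1, 4 when genes averaging under 5 FPKM were dropped and 3 with voom. Calls over all genes went from 196 to 75, 91 (of 13385) and 49. Dropping those weak genes left 64 of the 95 tested members, and age in Lost Hills then gave 21 member calls. Over all genes this age comparison then had 4700 calls of 13385 tested, in place of 6249 of 19716. The counts of 34 and 21 members thus rest on sets of different size. The cause was not tested.

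Samples were not treated as paired by replicate number: none of 15 pairs of groups had all correlations over 0.1. Between intact and tattered Golden Hills hulls at 133 days the correlations were 0.223, 0.152 and 0.0776. With so few libraries per group, these values cannot exclude a pairing. With a replicate block in only the groups compared, 26 tattered, 0 cracked, 4 split interaction, 34 Golden Hills age, 21 Lost Hills age, 7 age interaction, 0 (91 days) and 7 (133 days) cultivar calls were made. Over all genes the block gave 1537, 0, 51, 5858, 3827, 412, 0 and 765 calls in the same order, so that the 0 member calls for cracked hulls and for cultivars at 91 days say nothing about the members.

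Over 77 gene results and 2449 settings, 2173 kept direction and call, 276 kept direction and lost the call, and 0 reversed. Split interaction calls of evm_TU_ptg000019l_2788 and evm_TU_ptg000029l_238 were lost in 25 and 22 of 31 settings. At 18.1 reads per FPKM at the median gene length, members under 1 FPKM rest on few reads.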
